A study of Mus musculus with 6 samples.

Results

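The genes described here are 10 regulators of the G1 phase of the cell cycle: the cyclins Ccnd1, Ccnd2, Ccnd3, Ccne1 and Ccne2, the kinases Cdk4 and Cdk6, and the inhibitors Cdkn1b, Cdkn1c and Cdkn2b. They were taken by name, and each matched 1 row of the 37757 rows that the authors' deposited table holds. All 10 were among the 14748 rows that the authors tested, so no member was lost to a filter on low values. The cells were kidney epithelial cells of strain C57/Bl6J, isolated from mice aged 8 weeks, and every library carried the genotype Bim-/- Bmf-/-, which is named for 2 genes of the BH3-only family that promote apoptosis. One group stayed attached and the other was placed in suspension for 4 h before RNA was taken. Each group had 3 mRNA sequencing libraries, and the titles name the suspended ones for anoikis, the death of epithelial cells without anchorage. No wild-type cells were compared, so what is described holds for cells labelled as lacking both genes. The labels do not say how many animals or cultures the libraries came from, and the deposited p-values may therefore measure technical spread only.

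The values are FPKM, fragments scaled to transcript length and library size, with 1 value per condition that the authors made from its libraries. Genes can be set beside each other on this scale, but the spread between libraries cannot be shown and the depth is unknown. A gene is called here where the authors' q is below 0.05. In bulk RNA, fewer cells of a type and less RNA per cell cannot be told apart, and transcript levels do not give protein levels.

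Progress through G1 depends on cyclins, which switch on cyclin-dependent kinases (CDKs). D-type cyclins are made in response to growth factors and adhesion and pair with CDK4 or CDK6, E-type cyclins pair with CDK2, and both kinds of complex phosphorylate the retinoblastoma protein RB, which frees E2F transcription factors to switch on genes for DNA synthesis. INK4 inhibitors such as p15 (Cdkn2b) bind CDK4 and CDK6, while CIP/KIP inhibitors such as p27 (Cdkn1b) and p57 (Cdkn1c) bind cyclin-CDK complexes. Normal epithelial cells are known to stop in G1 when they lose anchorage.

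The 10 genes, chosen with earlier results of these data known, divided largely by role. Outside the 10, CDK inhibitors did not all rise and Cdk2 was called lower. All 3 D cyclins and Ccne1 fell in suspension, the 3 inhibitors rose, and Cdk4, Cdk6 and Ccne2 were not called, so 4 of 10 were called lower and 3 of 10 higher per the authors' deposited table. Over all tested rows, 26.3% were called lower and 24.7% higher per the authors' deposited table, so the counts alone stand not far above the background. With a 2-fold change required as well, the members' counts were again 4 lower and 3 higher, against 7.12% lower and 12.4% higher of all tested rows. The median log2 fold change of the 10 genes was -0.29, and that of all tested rows with a finite value was -0.04. All 7 called members had p = 5e-05 (q = 0.000185), the lowest p that the authors' deposited table holds, which 4278 tested rows share. They cannot be ranked by p, and only their fold changes separate them.

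**Figure D1:**
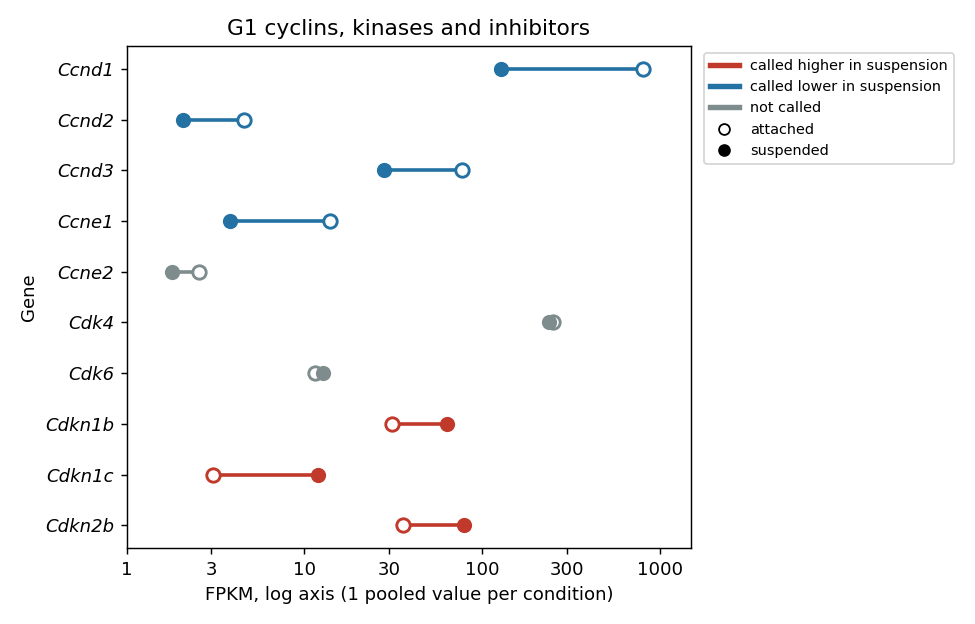
FPKM of each gene on a log axis, taken from the authors' deposited table, where each condition has 1 pooled value; attached cells are shown by open and suspended cells by filled circles, and colour gives the call. The suspended values of all 5 cyclins, Ccne2 uncalled among them, lie to the left of their attached values, the 3 inhibitors to the right, and the circles of Cdk4 and of Cdk6 nearly coincide.

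Promoter sequences are shown for a gene of each kind: 2 cyclins that fell, a kinase that was not called and an inhibitor that rose. RefSeq promoters (GRCm38.p6, 250 bases before to 50 after a start) were matched for 6 of the 10 genes, Ccnd3 with 2 starts. The stretches printed are the parts upstream of every annotated exon, read 5′ to 3′ on the gene's strand. They are chr17:47504801-47505050 for Ccnd3 (plus strand), chr7:38107535-38107740 for Ccne1 (minus strand), chr10:127063285-127063533 for Cdk4 (plus strand) and chr4:89311040-89311282 for Cdkn2b (minus strand). Capitals mark matches, on either strand, to the motif letters described after the sequences.

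Ccnd3: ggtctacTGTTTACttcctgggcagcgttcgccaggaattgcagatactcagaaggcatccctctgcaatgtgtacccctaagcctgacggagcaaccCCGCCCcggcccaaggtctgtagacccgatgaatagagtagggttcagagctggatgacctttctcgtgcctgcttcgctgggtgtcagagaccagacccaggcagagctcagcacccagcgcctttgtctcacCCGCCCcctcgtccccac

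Ccne1: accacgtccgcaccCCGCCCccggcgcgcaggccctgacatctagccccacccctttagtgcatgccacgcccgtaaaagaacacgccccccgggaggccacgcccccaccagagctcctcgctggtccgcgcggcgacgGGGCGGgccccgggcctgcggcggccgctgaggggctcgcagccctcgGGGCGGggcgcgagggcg

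Cdk4: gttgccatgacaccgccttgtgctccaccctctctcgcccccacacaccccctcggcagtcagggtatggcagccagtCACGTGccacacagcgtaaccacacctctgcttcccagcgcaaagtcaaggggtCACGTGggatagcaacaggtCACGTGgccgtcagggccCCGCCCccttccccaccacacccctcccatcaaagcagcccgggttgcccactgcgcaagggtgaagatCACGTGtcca

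Cdkn2b: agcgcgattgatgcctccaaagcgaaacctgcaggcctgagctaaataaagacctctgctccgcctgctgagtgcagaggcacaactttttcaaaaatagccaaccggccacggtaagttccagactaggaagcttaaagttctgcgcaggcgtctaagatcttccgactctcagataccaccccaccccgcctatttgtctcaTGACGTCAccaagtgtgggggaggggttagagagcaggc

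The motifs searched on both strands were TTTCGCGC, TTTGGCGC and TTTCCCGC for E2F, GTAAACA for FOXO factors, TGANTCA for AP-1, TGACGTCA for the cyclic AMP response element, GGGCGG for SP and KLF factors, and CACGTG for the E-box bound by MYC and related factors. Matches to different motifs did not overlap in these windows. The Cdk4 window held CACGTG 4 times, at -172, -118, -98 and -11 counted from the RefSeq start, and 7.15% of all 32851 promoter windows in the table held it at least once. The Cdk6 window held it at -220. The Cdkn2b window held TGACGTCA at -46, present in 1.79% of all windows. The upstream Ccnd3 window held GTAAACA at -243 on the reverse strand, present in 3.65% of all windows. GGGCGG was found 4 times in the Ccne1 window, of which 3 lie in the printed stretch, and it occurs in 35.7% of all windows. The windows of Ccnd3, Cdk4, Cdkn1b and Cdkn2b held it too. The 3 E2F spellings, found in 0.323%, 0.514% and 1.07% of all windows, and TGANTCA, found in 7.81%, had no match in the windows of these 6 genes. Such matches are letters in a window, and binding was not measured.

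D-type cyclins carried the steepest change. Ccnd1, the main D cyclin of these cells, stood at 799 FPKM attached and 128 FPKM suspended per the authors' deposited table. It ranked 54 among the 14748 tested rows attached and 574 suspended. The ratio was 6.25-fold lower in suspension, a log2 fold change of -2.64, and 80th from the lowest of 14616 finite log2 values per the authors' deposited table. Ccnd3 went from 77.5 to 28.0 FPKM, 2.77-fold lower (log2 fold change -1.47), per the authors' deposited table. Ccnd2, much less abundant than its relatives, went from 4.55 to 2.08 FPKM, 2.19-fold lower (log2 fold change -1.13), per the authors' deposited table. Each of the 3 paralogues thus fell, and the one with the most transcript had the greatest fold change. Whether the 3 fold changes differ from each other could not be tested without values per library.

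Summed over the 3 genes, D cyclin transcript went from 881 to 158 FPKM, 5.58-fold lower. Ccnd1 made up 90.7% of that sum attached and 81.0% suspended, while the share of Ccnd3 went from 8.80% to 17.7% and that of Ccnd2 from 0.516% to 1.31%. Ccnd1 therefore remained the leading D cyclin in suspended cells, at 4.57 times the level of Ccnd3, against 10.3 times in attached cells.

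E-type cyclins were lower in level and did not share 1 call. Ccne1 went from 13.9 to 3.83 FPKM, 3.64-fold lower (log2 fold change -1.86), per the authors' deposited table. That is the second greatest fall among the 10 genes. Ccne2 stood at 2.57 FPKM attached and 1.81 FPKM suspended (log2 fold change -0.51, q = 0.174) per the authors' deposited table. The 95% interval that the deposited p implies for Ccne2, if the log2 ratio is taken as normally distributed, ran from 0.461-fold to 1.07-fold of the attached level. An interval built on the deposited test score of -0.80 would be wider. A fall of 2-fold lies within that interval, so the missing call does not show that Ccne2 kept its level. Ccne1 made up 84.4% of summed E cyclin transcript attached and 67.9% suspended. The difference in fold change between Ccne1 and Ccne2 was not tested.

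The kinase partners of the D cyclins stayed close to their attached levels. Cdk4, the second most abundant of the 10 transcripts in attached cells, stood at 250 FPKM attached and 238 FPKM suspended (log2 fold change -0.07, q = 0.750) per the authors' deposited table. Its implied 95% interval was 0.775-fold to 1.18-fold. Cdk6 stood at 11.5 and 12.7 FPKM (log2 fold change 0.14, q = 0.393), with an implied 95% interval of 0.923-fold to 1.31-fold, per the authors' deposited table. Both intervals leave out a 2-fold change in either direction. Intervals built on the deposited test scores, -0.25 for Cdk4 and 0.61 for Cdk6, would be wider and were not computed. Cdk4 exceeded Cdk6 21.6-fold attached and 18.8-fold suspended, so Cdk4 was the main G1 kinase transcript in both conditions.

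**Figure D2:**
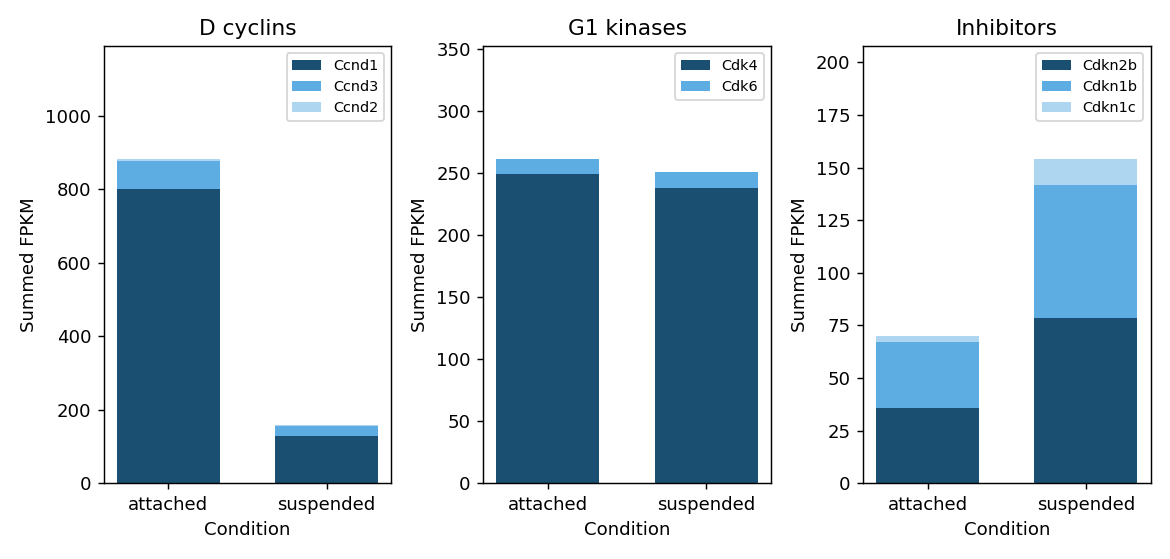
Summed FPKM of the D cyclins, of Cdk4 with Cdk6 and of the 3 inhibitors, from the authors' deposited table, with 1 stacked bar per condition and a linear axis that starts at 0 and differs between panels. The D cyclin bar drops from 881 to 158 FPKM, the kinase bar goes from 261 to 251 FPKM, and the inhibitor bar goes from 70.0 to 154 FPKM.

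All 3 inhibitors among the members rose. Cdkn1c, which encodes p57 and is an imprinted gene, had the greatest fold change of them and started lowest. It went from 3.08 to 12.0 FPKM, 3.89-fold higher (log2 fold change 1.96), per the authors' deposited table. Cdkn2b, which encodes p15 and is known as a target of TGF-beta signalling, went from 36.0 to 78.6 FPKM, 2.19-fold higher (log2 fold change 1.13), per the authors' deposited table. Cdkn1b, which encodes p27, went from 31.0 to 63.4 FPKM, 2.05-fold higher (log2 fold change 1.03), per the authors' deposited table. The protein p27 is known to be controlled largely by its breakdown, which these data do not measure. Cdkn2b and Cdkn1b together made up most of the summed inhibitor transcript, at 51.4% and 44.2% attached and 51.1% and 41.1% suspended.

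The order of the transcripts changed. Attached, Ccnd1 led, followed by Cdk4, Ccnd3, Cdkn2b, Cdkn1b, Ccne1, Cdk6, Ccnd2, Cdkn1c and Ccne2. In suspension Cdk4 led, followed by Ccnd1, Cdkn2b, Cdkn1b, Ccnd3, Cdk6, Cdkn1c, Ccne1, Ccnd2 and Ccne2. Both E cyclins and Ccnd2 were the 3 lowest in suspension. Which neighbours in these orders differ beyond their spread cannot be said from 1 value per condition.

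Ratios of summed FPKM put the same values on 1 scale. D cyclin transcript was 3.38 times that of Cdk4 and Cdk6 together in attached cells and 0.630 times in suspended cells. Against the 3 inhibitors, D cyclin transcript went from 12.6 times to 1.03 times, so that the sums were nearly equal in suspension. E cyclin transcript went from 0.235 to 0.0366 times that of the 3 inhibitors. Kinase transcript was 3.73 times that of the 3 inhibitors attached and 1.63 times suspended. These ratios depend on which inhibitors are summed: with Cdkn1a added, D cyclin transcript went from 3.75 to 0.302 times and kinase transcript from 1.11 to 0.480 times the inhibitor sum, so that in suspension both stood below it. These are ratios of transcript levels, with no error that can be given, and they do not count complexes.

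**Figure D3:**
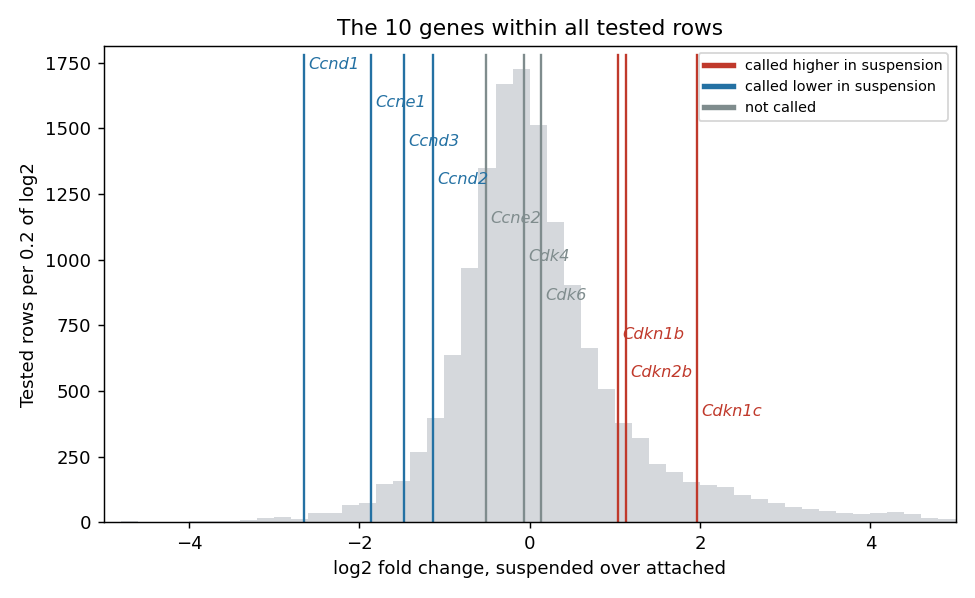
Number of tested rows per 0.2 of the log2 ratio of suspended to attached FPKM per the authors' deposited table, with a line for each of the 10 genes coloured by call. Ccnd1 lies far into the left tail, Cdk4 and Cdk6 lie in the central peak, and the 3 inhibitors lie to the right of it; 121 tested rows beyond 5 in either direction are not drawn.

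Other inhibitors were read from a list of the pathway. Of the 4 other CDK inhibitor genes 2 rose, 1 fell and 1 was not called. Cdkn1a, which encodes p21 and is known as a target of p53, was the most abundant inhibitor, at 165 FPKM attached and 368 FPKM suspended (2.23-fold higher, q = 0.000185) per the authors' deposited table. It held 82.9% of CIP/KIP transcript attached and 83.0% suspended, while the sum of the 3 CIP/KIP genes went from 199 to 443 FPKM. Cdkn2a, whose span ends 11.6 kb from that of Cdkn2b, went from 46.7 to 70.0 FPKM (1.498-fold higher, q = 0.000185) per the authors' deposited table. Its row does not separate the transcripts for p16 and for ARF, which share exons. Cdkn2d, which encodes the INK4 protein p19, went from 15.4 to 11.6 FPKM (q = 0.0175), and Cdkn2c, which encodes p18, stood at 6.64 and 7.12 FPKM (q = 0.702), per the authors' deposited table. Cdkn2b thus went from 34.3% to 47.0% of summed INK4 transcript.

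Genes that act beside and downstream of the G1 kinases were counted from the same list. Of 43 further regulators listed, 42 were matched and 41 tested, with Ccna1 not tested and Fbxo31 not analysed here. Of the 41 tested, 15 fell, 8 rose and 18 were not called, with a median log2 fold change of -0.20, against 26.3% lower and 24.7% higher over all tested rows. With a 2-fold change required as well, 5 were lower and 1 was higher, against 7.12% and 12.4% of all tested rows. Nothing particular to the list is read from these counts. Of the 6 tested genes for CDK2, A cyclins, CDC25A and the CDK-activating kinase, 3 fell and 3 were not called. Cdk2, the kinase that E cyclins activate, went from 17.1 to 9.01 FPKM (1.90-fold lower, q = 0.000185) per the authors' deposited table. Cdc25a, the phosphatase that removes inhibitory phosphates from CDK2, went from 14.7 to 4.32 FPKM (3.40-fold lower, q = 0.000185) per the authors' deposited table. Ccna2, the S phase cyclin A2, went from 35.0 to 22.2 FPKM (1.58-fold lower, q = 0.000185) per the authors' deposited table. The other 3 tested genes of this group, Cdk7, Ccnh and Mnat1, encode the CDK-activating kinase complex and were not called (q from 0.173 to 0.993). Transcripts of Ccne1 and of its kinase Cdk2 thus both fell, while those for CDK4 and CDK6 did not pass the test.

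Of 10 E2F and DP genes 6 fell and 4 were not called, where 26.3% of all tested rows were called lower. Tfdp1, the dimer partner of E2F proteins, went from 69.9 to 29.98 FPKM (2.33-fold lower), and E2f8, a repressor, from 11.8 to 5.34 FPKM (2.21-fold lower), per the authors' deposited table (q = 0.000185 for each). The activator E2f1 went from 7.99 to 4.70 FPKM and the repressor E2f4 from 40.4 to 24.5 FPKM per the authors' deposited table (q = 0.000185 for each). The falls therefore included activating and repressing members of the family. Of 8 pocket protein and DREAM genes, which hold E2F targets off, 1 rose, 1 fell and 6 were not called. Rb1 has 3 rows at 1 position in that table, and the row with the highest level stood at 18.6 FPKM attached and 21.5 FPKM suspended (q = 0.231). The other two stood at 1.52 and 6.10 FPKM (q = 0.458) and at 4.25 and 3.19 FPKM (q = 0.898). Its relative Rbl1, which encodes p107, went from 13.1 to 9.68 FPKM (q = 0.00334), and Lin54, a DREAM subunit, from 9.46 to 13.4 FPKM (q = 0.000185), per the authors' deposited table.

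Of 13 genes for the turnover of cyclins and inhibitors, 5 were called higher, 4 lower and 4 were not called, against 24.7% higher and 26.3% lower over all tested rows. Nothing particular to the group is read from so few genes. Skp2, the F-box protein that marks p27 for breakdown, went from 4.51 to 1.89 FPKM (2.38-fold lower, q = 0.000185) per the authors' deposited table. Cks1b, its cofactor in binding p27, went from 121 to 42.6 FPKM (2.85-fold lower, q = 0.000185) per the authors' deposited table. These falls stood beside the rise of the Cdkn1b transcript itself. Dyrk1b, a kinase known to phosphorylate cyclin D1 and p27, went from 14.3 to 27.9 FPKM (1.95-fold higher), and Cul3, a ubiquitin ligase scaffold that acts on cyclin E, from 65.6 to 123 FPKM (1.87-fold higher), per the authors' deposited table (q = 0.000185 for each). Fbxw7, the F-box protein for cyclin E, stood at 7.01 and 8.59 FPKM (q = 0.449) per the authors' deposited table.

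**Figure D4:**
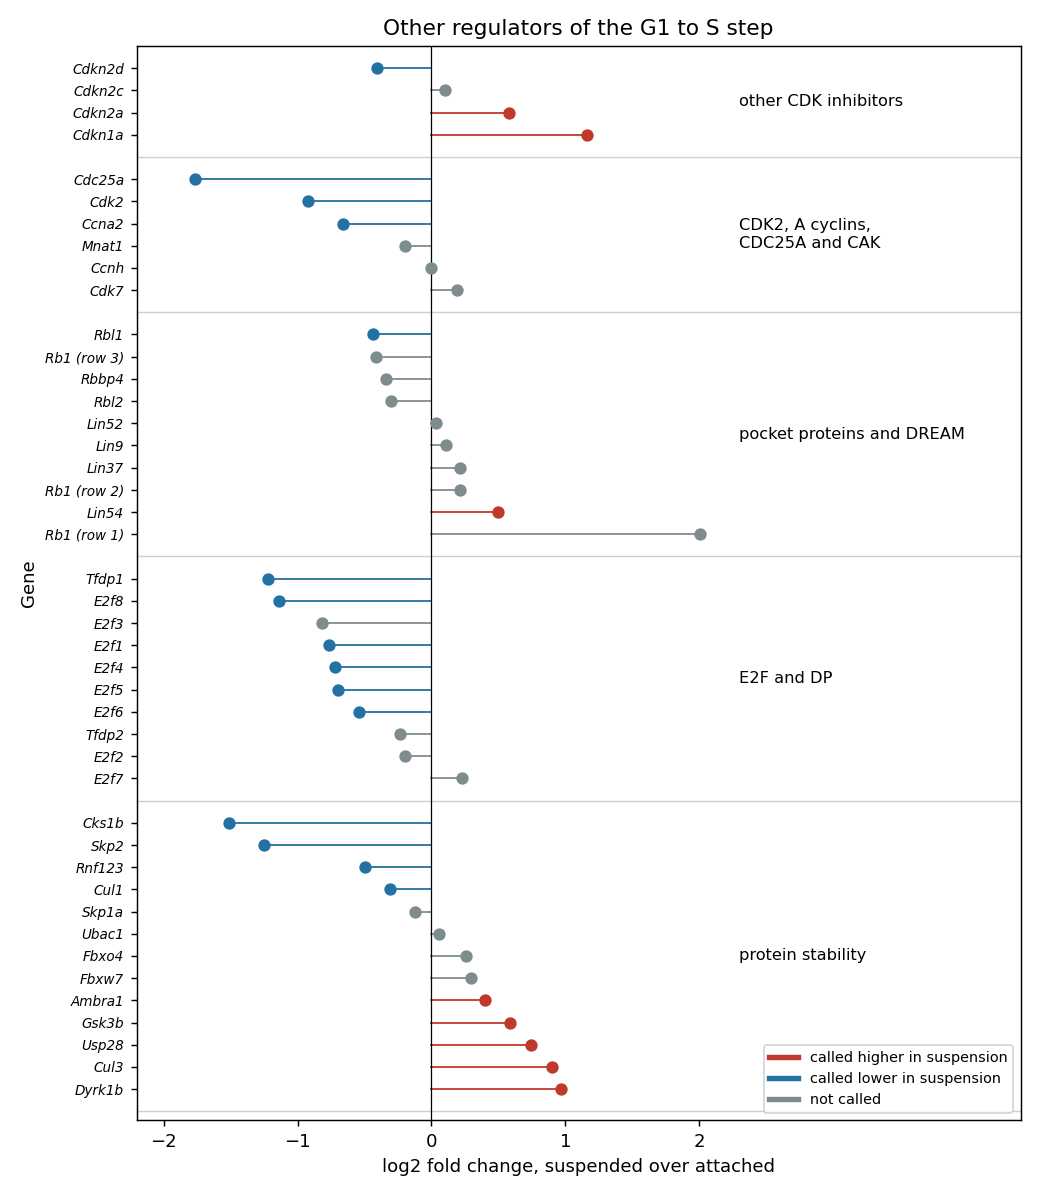
Change on the log2 scale, suspended against attached, per the authors' deposited table, of the 41 tested regulators outside the 10 genes, by group and coloured by call, with a separate line for each of the 3 rows of Rb1. E2F and DP genes lie mostly to the left, with 6 of 10 called lower, and Cdkn1a is the regulator called higher with the greatest rise, at a log2 fold change of 1.16.

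The positions of the genes bear on how far each value can be trusted, since whether reads were counted by strand is not given in the sources used here. In the GENCODE M21 annotation (GRCm38), Ccne1 (chromosome 7, 38097984 to 38107534, minus strand), Cdkn1b (chromosome 6, 134920401 to 134925513, plus strand) and Cdkn2b (chromosome 4, 89306299 to 89311039, minus strand) share no exonic base with another gene. Ccnd1 (chromosome 7, 144929931 to 144939925, minus strand) shares 23.4% of its exonic bases with Oraov1 on the other strand, which stood at 22.4 and 14.4 FPKM (q = 0.424) per the authors' deposited table, far below Ccnd1. Ccnd3 (chromosome 17, 47505051 to 47599691, plus strand) shares 4.11% with Bysl, which went from 20.9 to 6.50 FPKM (q = 0.000185) per the authors' deposited table. Ccne2 (chromosome 4, 11191351 to 11204779, plus strand) shares 17.4% with Ints8, which stood above it at 6.96 and 7.57 FPKM (q = 0.552) per the authors' deposited table. Cdk4 (chromosome 10, 127063534 to 127067920, plus strand) shares 19.7% with Tspan31, which went from 84.5 to 55.8 FPKM (q = 0.0109) per the authors' deposited table. Cdkn1c (chromosome 7, 143458339 to 143461050, minus strand) shares 30.7% of its exonic bases with the antisense gene Gm44732, whose level was not analysed here. Ccnd2 (chromosome 6, 127125162 to 127152193, minus strand) shares under 4% with each of 2 antisense genes. Cdk6 (chromosome 5, 3341485 to 3531008, plus strand) shares 2.63% with the antisense gene Gm17590, which stood at 296 and 376 FPKM (q = 0.909) per the authors' deposited table. The values of Ccne2, Cdk6 and Cdkn1c are the least certain for this reason, and the part of the overlaps in any call was not tested. For some members the deposited position reached well beyond the annotated span given above. It began at 144915100 for Ccnd1. It ended at 127212411 for Ccnd2, 47611492 for Ccnd3, 11254258 for Ccne2 and 127070261 for Cdk4. How the added stretches bear on the values was not tested.

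Markers of epithelium and of kidney tubule were high in both conditions. The 6 epithelial markers summed to 3030 FPKM attached and 3182 FPKM suspended, with 3 called higher, 1 lower and 2 not called. The 4 tubule markers, all called lower, summed to 767 and 460 FPKM. Single markers moved more than these sums: Cdh1 went from 95.4 to 201 FPKM, Pax2 from 150 to 30.9 FPKM and Pax8 from 104 to 37.1 FPKM. Endothelial markers were under 1 FPKM in both conditions, as were 3 of 4 fibroblast and 2 of 3 podocyte markers, with Dcn, Tek, Nphs1 and Wt1 listed at 0 attached. Pdgfra (0.155 to 1.81 FPKM), Synpo (2.53 to 12.6 FPKM) and the leukocyte markers Ptprc (1.42 to 12.4 FPKM) and Cd68 (23.4 to 34.9 FPKM) were called higher per the authors' deposited table, while Itgam and Cd3e stayed under 1 FPKM. The summed leukocyte markers went from 24.97 to 47.5 FPKM. Mitochondrial rows, 1 sign of RNA quality, summed to 31198 FPKM attached and 68368 FPKM suspended, and 3 of 10 tested were called, each higher. The part of these shifts in the changes of the cyclins and inhibitors was not tested. The labels' deletions cannot be checked from whole-gene values: Bcl2l11 (Bim) stood at 9.53 and 51.4 FPKM and Bmf at 2.95 and 4.298 FPKM per the authors' deposited table.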

How the data were processed

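RNA from attached and suspended kidney epithelial cells was sequenced as mRNA on a HiSeq instrument, per the labels' protocols. TopHat, Bowtie, Cufflinks 1.0.3, Cuffdiff and the build mm10 are named in the submitters' processing notes, with no settings. For each condition the authors deposited a single FPKM per row, pooled over its 3 libraries. The authors also deposited a log2 fold change, a test score, a p-value and a q-value per row, per the file headers. The columns are named by letters ending in A and S, read here as attached and suspended.

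No test across libraries was run, because the table holds no values per library; calls are the authors' q below 0.05 over 14748 tested rows. The deposited log2 fold change differed from the log2 ratio of the FPKM by at most 4.0e-05. Intervals at the 95% level used a standard error computed as the deposited log2 fold change divided by the normal quantile of its p, for genes above the lowest p only. They rest on the authors' p and assume a normal log2 ratio. The deposited test scores of Ccne2, Cdk4 and Cdk6 are smaller in size than those quantiles, so intervals built on the scores would be wider. Family sums, shares and ratios were computed from the FPKM with no test. Depth is unknown, so no floor for low values is given. Of 13580 tested single-gene rows with a name in GENCODE M21, 13565 overlapped the deposited position.

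The members and gene lists were chosen with earlier results of these data known. All 10 members are named; in each group of regulators up to 4 called genes with the greatest absolute log2 fold change and at least 1 FPKM are named, with Cdk2, Cdkn1a, Rb1 and Skp2 in any case. Names outside that rule (Cdkn2c, Cdk7, Ccnh, Mnat1 and Fbxw7) were added after their values were seen. One listed marker is not reported here. The adjustment, the calls and the standard error were checked on simulated data with normal errors. That check cannot show whether the deposited p follow from a normal log2 ratio. Calculations ran in Python 3.11.15 with pandas 2.3.3, SciPy 1.17.1 and NumPy 2.4.6, and plots in matplotlib 3.10.9. Alternatives covered the pseudocount, scaling, adjustment, threshold, a fold minimum and a filter on low values.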

Additional observations from a re-analysis of the deposited data

How the results depend on the processing

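A pseudocount of 0.1 or 1 FPKM, centring on the median and division by summed FPKM were read for direction only, because the deposited q was carried over unchanged. A pseudocount added to both conditions cannot reverse a direction, so only centring and division by summed FPKM could do so. Under these 4 settings, 38 of 40 values over the 10 members kept their direction, those with a pseudocount by construction. The other 2 were both of Cdk4, which was not called: its log2 fold change of -0.07 became 0.0408 after centring, which subtracts a median of -0.11 over rows with at least 1 FPKM in both conditions, and 0.0326 after division by summed FPKM without mitochondrial and short RNA rows. Calls were read under 3 settings: an adjustment recomputed over all tested rows, the same over rows with a mean of at least 1 FPKM, and q below 0.01. All 30 such calls were the same as with the deposited q, which was fixed in advance. The called members share the lowest p. No adjustment or stricter cut-off could bring the authors' p of 0.103 (Ccne2), 0.286 (Cdk6) or 0.66 (Cdk4) below 0.05. The counts of 4 members lower and 3 higher were equal under these settings and with a 2-fold change required. For the regulators, requiring a 2-fold change left 1 of 8 higher and 5 of 15 lower calls. Most of their changes were smaller than that. The filter on low values left both counts as they were, at 8 higher and 15 lower. No paired analysis was possible because the table holds 1 value per condition and none per library. For the same reason leaving out each library, edgeR and DESeq2 were not run. The lowest p of the table limits how far calls can be ranked, and with the depth unknown no error can be given for the low values of Ccnd2 and Cdkn1c.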

Other observations

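Of 9 other cyclins, listed apart from those of G1, 3 rose and 6 were not called, and the median log2 fold change was 0.17, per the authors' deposited table. Over all tested rows 24.7% were called higher, so this count is near the background. Ccng2, a cyclin linked to cell cycle arrest and known as a FOXO target, went from 32.3 to 83.7 FPKM (2.59-fold higher, q = 0.000185) per the authors' deposited table. Ccnt2, a partner of the transcription kinase CDK9, went from 10.3 to 17.3 FPKM (1.68-fold higher, q = 0.000185) per the authors' deposited table. Ccnk, which pairs with the transcription kinases CDK12 and CDK13, went from 17.4 to 21.3 FPKM (1.22-fold higher, q = 0.0354) per the authors' deposited table. Ccng1, named after its values were seen as the most abundant of the 9, stood at 323 and 364 FPKM (q = 0.185) per the authors' deposited table. In suspension Ccng1 thus stood above Ccnd1, which had been the more abundant of the pair in attached cells.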
